A study of Mus musculus with 10 samples.

Results

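NRF2, encoded by Nfe2l2, and 9 genes of the antioxidant defence were examined in cardiac endothelial cells (ECs) of mice on a control or a ketogenic diet. The 10 genes were Nfe2l2, Hmox1, Nqo1, Gclc, Gclm, Txnrd1, Srxn1, Slc7a11, Cat and Sod2, chosen by name as the factor, classical targets of it and the enzymes that clear superoxide and hydrogen peroxide. Earlier results of these data were known when the genes were chosen. Each of the 10 genes was found once among the 46983 genes of the count table, and all had enough reads to be tested. None of the 10 differed between the diets at an adjusted p-value under 0.05. Slc7a11 and Gclc, which serve glutathione synthesis, had the lowest log2 fold changes (−0.62 and −0.21), and the other 8 lay between −0.08 and 0.10. The value of Slc7a11 rested on only 5 to 21 reads per mouse.

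Wild-type male C57BL/6J mice, 8 weeks old at the start, received either a control diet with 11.6% of its energy as fat or a ketogenic diet with 89.5% for 14 days, with free access to food, after an initial period in which the diet was offered beside standard chow. There were 5 mice per diet, and each gave one RNA-sequencing library. Hearts were digested with collagenase and dispase, and cells were captured with CD31 antibodies on magnetic beads. CD31 is also carried by platelets and some leukocytes, so that the capture can hold these cells too. The libraries held 10885154 to 12710861 reads assigned to genes. The study asked how a diet that raises circulating ketone bodies changes gene expression in these cells, and the genes described here are those of their antioxidant defence.

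NRF2 is a transcription factor that is held in the cytoplasm and marked for degradation by KEAP1 and the ubiquitin ligase CUL3 in unstressed cells. Oxidants and electrophiles modify KEAP1, so that NRF2 accumulates without a change in its mRNA, enters the nucleus, pairs with small MAF proteins and binds antioxidant response elements. Its targets make glutathione, keep thioredoxin reduced, degrade heme and reduce quinones. In ECs this defence limits the loss of nitric oxide to superoxide. Catalase and the mitochondrial superoxide dismutase act beside it and respond to other factors as well.

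The core letters of the antioxidant response element, TGACNNNGC, were searched on both strands of the RefSeq promoter windows (GRCm38.p6), which run from 250 bases before to 50 bases after a gene's start. Windows were given for 8 of the 10 genes, and the table had no match by symbol for Hmox1 and Gclc. The letters were found in 4 of these 8 genes, Nfe2l2, Gclm, Txnrd1 and Srxn1, against 14% of the 27025 genes with a window. By window they were found in 4 of 10, against 12.4% of all 32851 windows. As the genes were chosen in part as targets of NRF2, the higher share is not a test. None of the 4 matches overlapped the AP-1 letters TGANTCA. The matches are shown because NRF2 binds its targets at such elements, and whether it does so at these was not tested. Each is printed 5′ to 3′ on the strand on which the element reads TGACNNNGC, with the element in capitals and up to 10 bases on each side.
Nfe2l2: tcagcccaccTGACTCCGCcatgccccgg
Gclm: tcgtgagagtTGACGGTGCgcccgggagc
Txnrd1: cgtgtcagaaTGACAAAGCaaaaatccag
Srxn1: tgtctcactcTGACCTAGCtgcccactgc

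The Nfe2l2 sequence was chr2:75704885-75704913 on the minus strand, the strand of the gene, with the element 240 bases before the start. That of Gclm was chr3:122245413-122245441, with the element 134 bases before the start. That of Txnrd1 was chr10:82859104-82859132, with the element 92 bases before one of the 3 starts given for the gene. That of Srxn1 was chr2:152105542-152105570, with the element from base 29 after the start. The last 3 were printed from the minus strand, opposite to their genes. The letters were not in the windows of Nqo1, Slc7a11, Cat and Sod2. A match describes these letters only, and binding was not measured.

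The levels of the 10 genes spanned a wide range. RPKM, the read count scaled to gene length and library total, allows levels to be compared between genes. Catalase, encoded by Cat, had the highest level at 90.6 ± 3.01 RPKM (SD, n = 5 mice) on the control diet and 94.0 ± 3.14 (SD, n = 5) on the ketogenic diet. Nfe2l2 followed with 83.6 ± 1.98 and 82.7 ± 2.39 RPKM, above the mean level of 97.4% of the tested genes. Hmox1, encoding heme oxygenase 1, had 67.1 ± 4.40 and 70.3 ± 1.69 RPKM. The mRNAs of the factor, of catalase and of heme oxygenase 1 were thus among the more abundant in these samples. Markers of other heart cells were present too, so the levels cannot be assigned to ECs alone.

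Sod2 came next with 30.3 ± 1.29 and 32.3 ± 2.58 RPKM, followed by Nqo1 with 22 ± 3.29 and 22.9 ± 3.50 and Txnrd1 with 22.8 ± 2.86 and 21.7 ± 2.06. Gclc had 9.75 ± 0.985 and 8.52 ± 1.29 RPKM, Srxn1 8.04 ± 0.918 and 8.67 ± 1.31, and Gclm 3.18 ± 0.306 and 3.28 ± 0.238. Slc7a11 had the lowest level, 0.0983 ± 0.0150 and 0.0639 ± 0.0277 RPKM, from only 5 to 21 reads per mouse on a gene of 16795 exonic bases. Neighbours in this order did not overlap over the 10 mice, except Nqo1 with Txnrd1 (Nqo1 was higher in 5 of 10 mice) and Gclc with Srxn1 (Gclc was higher in 7 of 10).

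**Figure D1:**
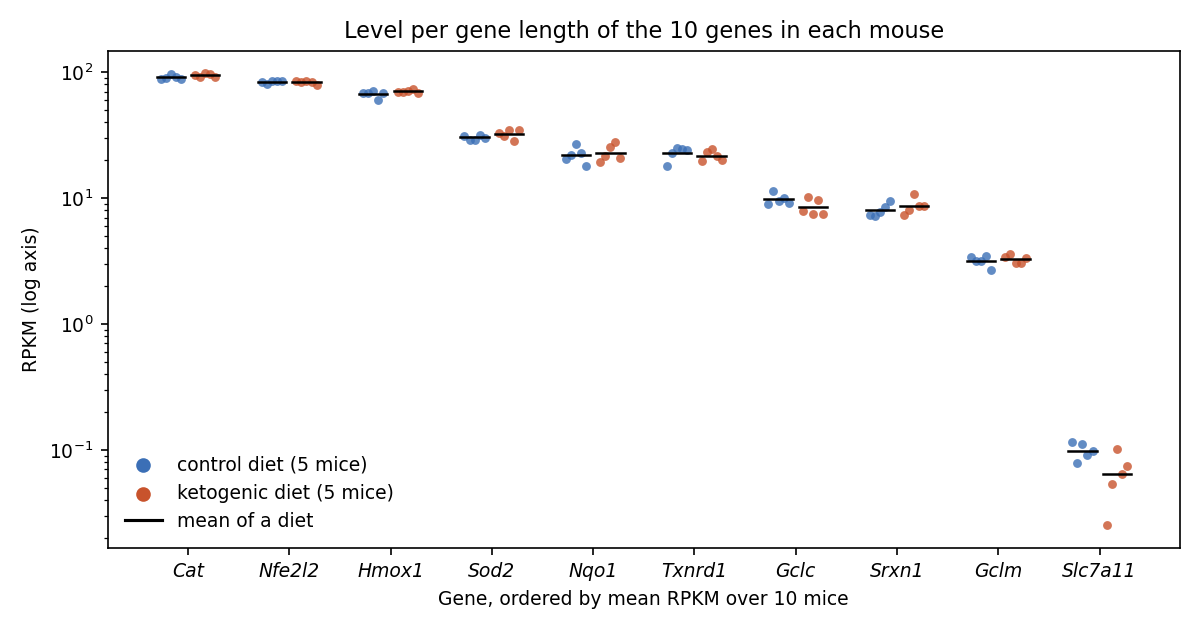
RPKM of each gene (log axis) in each of the 5 mice on the control diet (blue) and the 5 on the ketogenic diet (red), ordered by mean level, with a bar at the mean of each diet. Cat, Nfe2l2 and Hmox1 lie between 59.6 and 97.7 RPKM, and Slc7a11 lies between 0.0252 and 0.115.

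A limit on high counts applies to these levels. No gene of at least 300 bases had more reads than 105.1% of its possible read starts, counted as 2 per exonic base, one for each strand. Whether reads with the same start were counted once is not given in the sources used here. Nfe2l2 used 45.6% to 49.9% of its starts, Cat 48.3% to 57.8%, Hmox1 33.4% to 43.6% and Sod2 16.4% to 22.1%. The other 6 genes used at most 16.5%. Where such a ceiling holds, a count near it understates a difference, so fold changes were also computed from counts corrected for the share of starts used.

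The diets were compared gene by gene with edgeR's quasi-likelihood test on counts normalized by TMM, fitted over 15949 genes. Of these, 213 (1.34%) had an adjusted p-value under 0.05, against 0 of the 10 genes described here. At an unadjusted p-value under 0.05 there were 17.8% of all genes and 0 of the 10. DESeq2 and limma on log2 RPKM also gave 0 at either limit. The median log2 fold change was 0.04 for the 10 genes and −0.00571 for all genes, and 6 of the 10 were above 0, against 48.6% of all genes. For 0 of the 10 were the normalized counts of the diets without overlap, which held for 4.34% of all genes. In these bulk samples fewer cells of a type and less RNA per cell cannot be told apart.

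**Figure D2:**
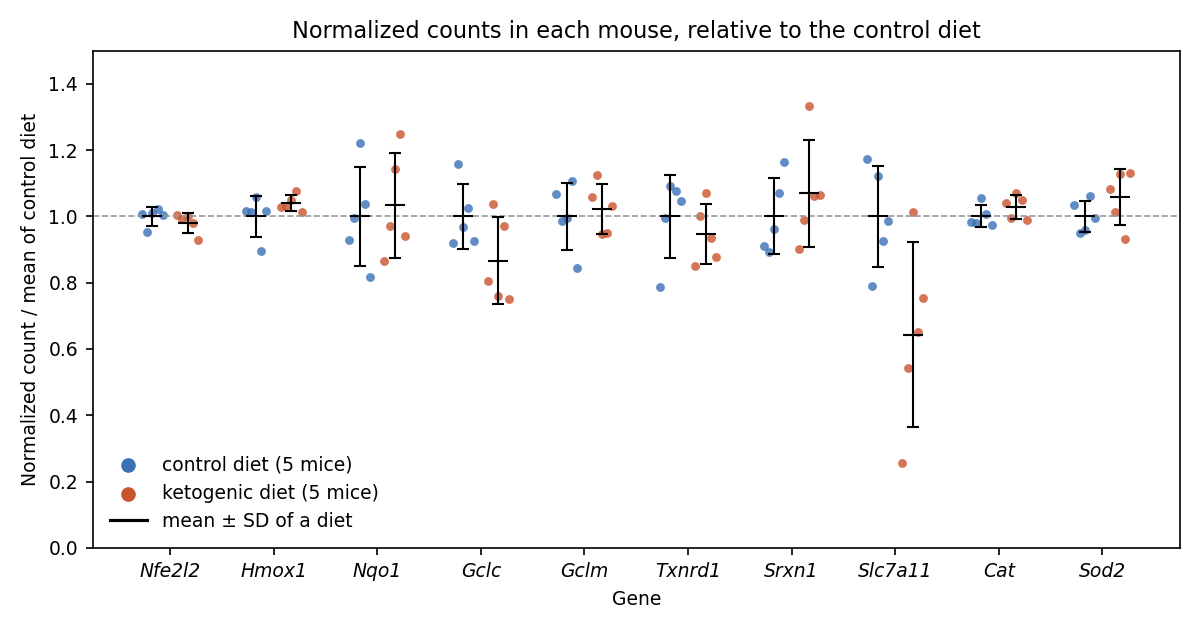
Normalized count of each gene in each mouse divided by the mean of the control diet, for 5 mice on the control diet (blue) and 5 on the ketogenic diet (red), with mean ± SD. The diets overlap for all 10 genes, and 4 of 5 mice on the ketogenic diet lie below every control mouse for Slc7a11.

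Nfe2l2 (ENSMUSG00000015839.6, chromosome 2 from 75675513 to 75704641, minus strand, GRCm38) had normalized counts of 3866, 3656, 3881, 3929 and 3860 in mice 1 to 5 of the control diet. On the ketogenic diet they were 3852, 3806, 3839, 3768 and 3569. All 5 mice on the ketogenic diet lay below the control median, yet 4 of them lay within the control range, which mouse 2 extended downward. Nfe2l2 had a log2 fold change of −0.03 with a standard error of 0.0313 (edgeR adjusted p = 0.683), with a 95% interval from 0.936-fold to 1.03-fold. With counts corrected for read starts the log2 fold change was −0.016. Nfe2l2 overlaps Gm24996, a small nuclear RNA gene, on the same strand.

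Hmox1 (ENSMUSG00000005413.7, chromosome 8 from 75093621 to 75100589), which degrades heme to biliverdin, iron and carbon monoxide, had 2304, 2301, 2405, 2031 and 2305 normalized counts on the control diet. The 5 mice on the ketogenic diet had 2334, 2341, 2379, 2445 and 2297. Control mouse 4 was the lowest of all, and the other 9 mice lay between 2297 and 2445. Hmox1 had a log2 fold change of 0.06 with a standard error of 0.0436 (edgeR adjusted p = 0.532; 95% interval 0.973-fold to 1.11-fold), and 0.086 after correction for read starts.

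Nqo1 (ENSMUSG00000003849.8, chromosome 8 from 107388225 to 107403206, minus strand), which reduces quinones by 2 electrons at once, is a common readout of NRF2 activity. Its normalized counts were 372, 398, 489, 415 and 327 on the control diet and 346, 389, 457, 500 and 376 on the ketogenic diet. The mice of either diet spread over about the same range. Nqo1 had a log2 fold change of 0.05 with a standard error of 0.123 (edgeR adjusted p = 0.870; 95% interval 0.859-fold to 1.24-fold). Its coefficient of variation was 14.9% and 15.2% within the diets.

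The glutathione genes included the members with the largest differences. Glutamate-cysteine ligase makes the first step of glutathione synthesis from a catalytic subunit, Gclc, and a modifier subunit, Gclm, which lowers the concentration of substrate the enzyme needs. Gclc (ENSMUSG00000032350.8, chromosome 9 from 77754535 to 77794485) had 360, 453, 378, 401 and 362 normalized counts on the control diet and 315, 406, 297, 380 and 294 on the ketogenic diet. Mice 1, 3 and 5 on the ketogenic diet lay below every control mouse, and mice 2 and 4 lay within the control range. Gclc had a log2 fold change of −0.21 with a standard error of 0.108 (unadjusted p = 0.0775 and adjusted p = 0.341 in edgeR; 95% interval 0.735-fold to 1.02-fold). The two-sided exact permutation test over the mice gave p = 0.111. With single mice left out, the log2 fold change ranged from −0.28 without ketogenic mouse 2 (unadjusted p = 0.0195, adjusted p = 0.156) to −0.145 without control mouse 2 (unadjusted p = 0.214, adjusted p = 0.540).

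Gclm (ENSMUSG00000028124.15, chromosome 3 from 122245557 to 122270732) had 345, 318, 321, 357 and 273 normalized counts on the control diet and 342, 363, 306, 307 and 333 on the ketogenic diet. The ranges largely coincided. Gclm had a log2 fold change of 0.03 with a standard error of 0.0870 (edgeR adjusted p = 0.873; 95% interval 0.897-fold to 1.17-fold), and its sign turned without control mouse 5 (−0.021) or ketogenic mouse 2 (−0.0015). Gclm overlaps Gm17494 on the other strand and the pseudogene Gm6061 on the same strand, and the libraries do not record the strand.

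The ratio of the subunits was examined after their values had been seen. The Gclc to Gclm ratio of normalized counts was 1.04, 1.42, 1.18, 1.12 and 1.33 in control mice 1 to 5 and 0.919, 1.12, 0.971, 1.24 and 0.885 in ketogenic mice 1 to 5. The means were 1.22 ± 0.154 (SD, n = 5) and 1.03 ± 0.148 (SD, n = 5), with 3 of 5 mice on the ketogenic diet below every control mouse. The difference was −0.25 on the log2 scale (two-sided exact permutation test, p = 0.0714), which did not pass 0.05.

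Slc7a11 (ENSMUSG00000027737.10, chromosome 3 from 49892526 to 50443614, minus strand) encodes the transporter subunit that imports cystine, the source of cysteine for glutathione, in exchange for glutamate. It had 22.7, 15.3, 21.7, 17.9 and 19.1 normalized counts on the control diet and 4.93, 10.5, 19.6, 12.6 and 14.6 on the ketogenic diet. Mice 1, 2, 4 and 5 on the ketogenic diet lay below every control mouse, and mouse 3 lay within the control range. Slc7a11 had a log2 fold change of −0.62 with a standard error of 0.310 (unadjusted p = 0.0665 and adjusted p = 0.317 in edgeR; 95% interval 0.406-fold to 1.04-fold). Permuting the mice for Slc7a11 by itself gave p = 0.0397 (two-sided, exact), where the smallest value it can give is 0.00794, and the other 9 genes had values from 0.111 to 0.722. With so few reads, counting alone gives a coefficient of variation of 25.2%. The log2 fold change ranged from −0.84 without ketogenic mouse 3 to −0.42 as single mice were left out, and 5 other annotated genes, among them pseudogenes and an antisense transcript, overlap it.

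Txnrd1 (ENSMUSG00000020250.9, chromosome 10 from 82833951 to 82897712), the cytosolic thioredoxin reductase, had 717, 907, 996, 981 and 954 normalized counts on the control diet and 776, 913, 975, 851 and 800 on the ketogenic diet. Control mouse 1 was the lowest, and no mouse on the ketogenic diet lay outside the control range. Txnrd1 had a log2 fold change of −0.08 with a standard error of 0.0925 (edgeR adjusted p = 0.689; 95% interval 0.823-fold to 1.09-fold). Txnrd1 overlaps Eid3 on the same strand and 2 non-coding genes on the other.

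Srxn1 (ENSMUSG00000032802.8, chromosome 2 from 152105516 to 152111376) encodes sulfiredoxin, which restores overoxidized peroxiredoxins. Its normalized counts were 312, 305, 329, 366 and 398 on the control diet and 308, 338, 456, 363 and 364 on the ketogenic diet. One mouse on the ketogenic diet, mouse 3, lay above every control mouse, and the others lay among them. Srxn1 had a log2 fold change of 0.10 with a standard error of 0.112 (edgeR adjusted p = 0.690; 95% interval 0.902-fold to 1.27-fold).

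Cat (ENSMUSG00000027187.10, chromosome 2 from 103453849 to 103485160, minus strand), which splits hydrogen peroxide in peroxisomes, had 3274, 3261, 3508, 3356 and 3239 normalized counts on the control diet and 3463, 3310, 3561, 3492 and 3293 on the ketogenic diet. All 5 mice on the ketogenic diet lay above the control median, and 1 of them lay above every control mouse. Cat had a log2 fold change of 0.04 with a standard error of 0.0340 (edgeR adjusted p = 0.558; 95% interval 0.977-fold to 1.08-fold). After correction for read starts it was 0.091 (standard error 0.0457, unadjusted p = 0.0683, adjusted p = 0.316).

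Sod2 (ENSMUSG00000006818.4, chromosome 17 from 13006846 to 13040063), the manganese superoxide dismutase of mitochondria, had 1405, 1290, 1302, 1441 and 1349 normalized counts on the control diet and 1468, 1374, 1533, 1267 and 1537 on the ketogenic diet. Mice 1, 3 and 5 on the ketogenic diet lay above every control mouse, and mouse 4 lay below all of them. Sod2 had a log2 fold change of 0.08 with a standard error of 0.0582 (edgeR adjusted p = 0.494; 95% interval 0.969-fold to 1.16-fold). With single mice left out it ranged from 0.0605 without ketogenic mouse 5 (unadjusted p = 0.331, adjusted p = 0.658) to 0.12 without ketogenic mouse 4 (unadjusted p = 0.0337, adjusted p = 0.264).

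**Figure D3:**
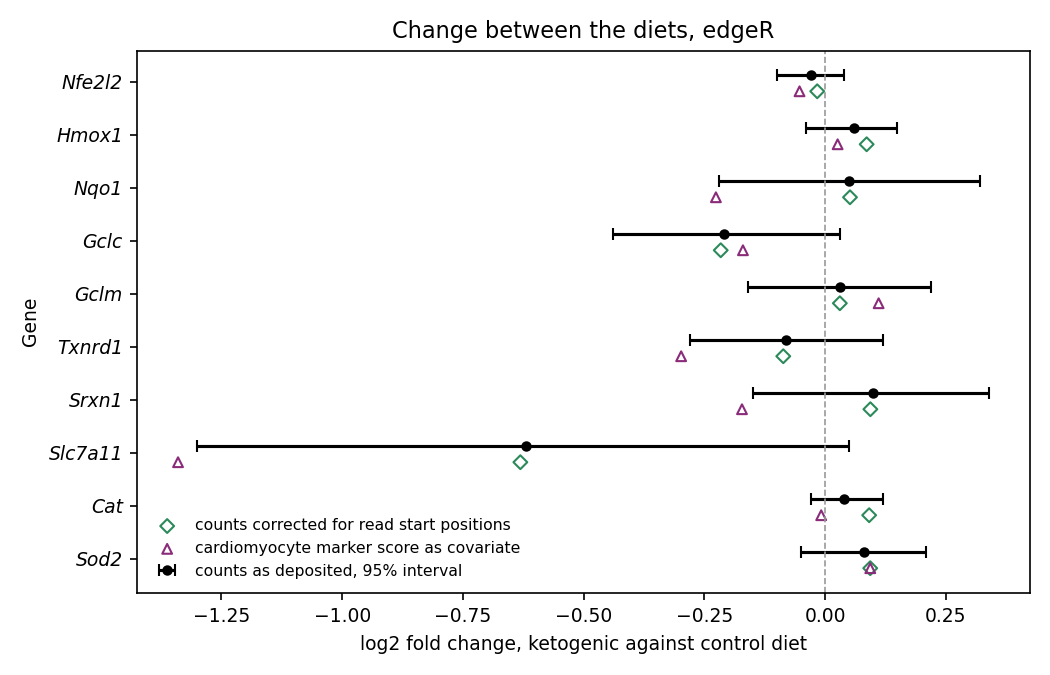
Log2 fold change of each gene on the ketogenic against the control diet with its 95% interval (black), beside the value from counts corrected for read start positions (green diamonds) and with the cardiomyocyte marker score as a covariate (purple triangles). All 10 intervals include 0, and that of Slc7a11 is the widest, from −1.30 to 0.05.

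The intervals differ in width with the number of reads and the spread between mice. For Nfe2l2, Hmox1, Cat and Sod2, the genes with the most reads, the 95% intervals together ran from 0.936-fold to 1.16-fold on the scale of the deposited counts. Those of Nqo1, Gclm, Txnrd1 and Srxn1 together ran from 0.823-fold to 1.27-fold.

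Markers of other heart cells were compared because several of the 10 genes are also expressed outside ECs. No marker of the 8 lists was at 0 in every mouse. The 10 endothelial markers summed to 756 to 791 RPKM per mouse on the control diet and 742 to 844 on the ketogenic diet, and Pecam1, which encodes CD31, had 52.9 to 62.1 RPKM. The 10 cardiomyocyte markers summed to 248 to 315 RPKM on the control diet and 291 to 391 on the ketogenic diet, and all 10 had a log2 fold change above 0, 8 of them with an unadjusted p-value under 0.05. Of all genes, 48.6% were above 0, and at that limit 8.57% were higher and 9.26% lower. The 5 platelet markers summed to 262 to 377 and 126 to 291 RPKM, with all 5 below 0 at an unadjusted p-value under 0.05. The macrophage markers summed to 110 to 381 and 96.0 to 191 RPKM, and 4 of the 9 tested were lower at that limit. Fibroblast markers summed to 237 to 270 and 230 to 284 RPKM, mural markers to 606 to 640 and 585 to 645, lymphocyte markers to 59.0 to 81.2 and 48.3 to 60.1, and erythroid markers to 131 to 152 and 141 to 151. Of the 8 lymphocyte markers 3 were lower at an unadjusted p-value under 0.05, and 1 of the 8 passed the adjusted limit, as no marker of the other 7 lists did. That limit was passed by 1.34% of all genes. Myh6, the cardiac myosin heavy chain, had 4.07 to 8.82 RPKM on the control diet and 6.35 to 12.2 on the ketogenic diet, and Ptprc, the leukocyte antigen CD45, had 1.48 to 3.84 and 1.40 to 2.56. Exact permutation tests of the marker scores gave p = 0.0159 for cardiomyocyte and p = 0.0317 for platelet markers, both 0.127 when adjusted over the 8 lists. Counts near the ceiling of read starts keep such sums from giving cell shares.

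The cardiomyocyte score had a mean of −0.624 on the control diet and 0.624 on the ketogenic diet. A fit with this score as a covariate therefore cannot fully separate the diet from the score. In it the standard error of Gclc was 0.165, against 0.108 without the score. With each mouse's cardiomyocyte score as a covariate, the signs of Nqo1 (log2 fold change −0.23), Srxn1 (−0.17) and Cat (−0.0079) turned. In the same fit, Txnrd1 was at −0.30 (unadjusted p = 0.0162, adjusted p = 0.338 from edgeR) and Slc7a11 at −1.34 (unadjusted p = 0.00785, adjusted p = 0.280). Nfe2l2 was at −0.0528, Hmox1 at 0.0261 and Gclm at 0.111. None of the 10 passed the adjusted limit, and 18 of all genes did, in place of 213. With the macrophage score as a covariate no sign turned. The platelet score was not used as a covariate.

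The wider pathway was described with 8 lists of other genes, also chosen with earlier results of these data known. Of 108 genes, 105 were tested, and 54 had a log2 fold change above 0 and 51 below. Above 0 were 48.6% of all genes, the share to set beside each list below. One gene rose at an adjusted p-value under 0.05 (0.809% of all genes did) and 0 fell (0.527%). At 1.34% of all genes in either direction, lists as short as those below would mostly hold 0, so a 0 sets none apart. At an unadjusted p-value under 0.05, 16 were higher (8.57% of all genes) and 8 lower (9.26%). Higher and lower genes were 5 and 1 of 24 transferases and quinone reductases, and 3 and 0 of 9 of NADPH supply. They were 2 and 1 for heme and iron, 2 and 2 for glutathione, and 2 and 0 for superoxide and peroxide removal. NRF2 regulators had 1 and 1, thioredoxin and peroxiredoxin genes 1 and 1, and superoxide sources 0 and 2. The median log2 fold change over the tested genes was 0.01.

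Idh1 (ENSMUSG00000025950.16), the cytosolic isocitrate dehydrogenase that supplies NADPH for the reduction of glutathione and thioredoxin, was the one that rose. Its normalized counts were 1438, 1326, 1348, 1553 and 1464 on the control diet and 1653, 1630, 1784, 1619 and 1655 on the ketogenic diet. Every mouse on the ketogenic diet lay above every control mouse. Idh1 had a log2 fold change of 0.23 with a standard error of 0.0491 (edgeR adjusted p = 0.0470). The adjusted p-value was close to the limit and passed it in 10 of 22 alternatives, including 2 of the 10 that left out a mouse, with log2 fold changes from 0.19 to 0.26 and adjusted p-values from 0.00198 to 0.386. Among the 9 genes of NADPH supply, 6 were above 0, with a median log2 fold change of 0.02. Malic enzyme, Me1, had 77.7 ± 14.8 and 101 ± 10.3 normalized counts (SD, n = 5 each; log2 fold change 0.38, adjusted p = 0.189 from edgeR).

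**Figure D4:**
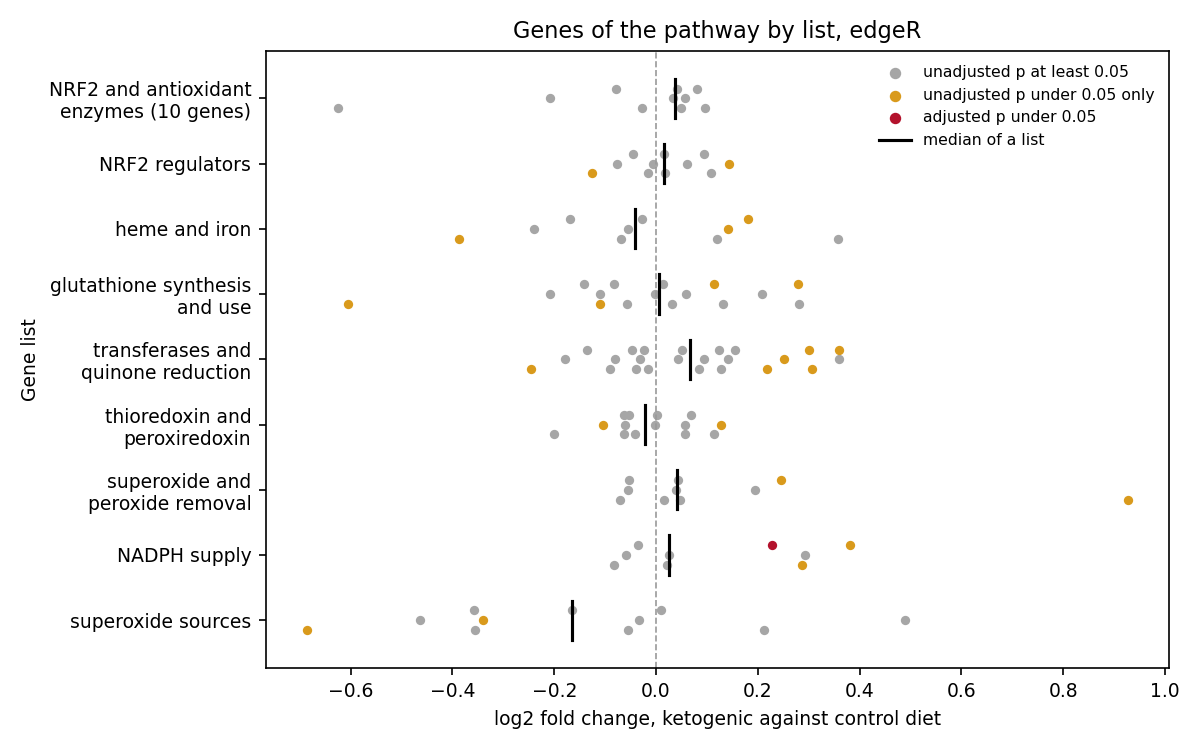
Log2 fold changes on the ketogenic against the control diet for the 10 genes and for the tested genes of the 8 lists, each point a gene, colored by its edgeR p-value, with a bar at the median of the list. One gene of NADPH supply, Idh1, has an adjusted p-value under 0.05, and the medians lie between −0.16 and 0.07.

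Of 11 regulators of NRF2, 6 were above 0 and 0 passed the adjusted limit (median 0.02). Keap1, the sensor that holds NRF2, was at 0.0952 (adjusted p = 0.400 from edgeR), a value chosen after it had been seen. Cul3, the scaffold of the ligase that marks NRF2, had 786 ± 38.4 normalized counts on the control diet and 868 ± 40.4 on the ketogenic diet (log2 fold change 0.14, adjusted p = 0.182). Mafg, a small MAF partner of NRF2, had 1547 ± 49.4 and 1417 ± 98.0 (log2 fold change −0.13, adjusted p = 0.214).

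Among 10 genes of heme and iron handling, 4 were above 0 and 0 passed (median −0.04). Ftl1, a subunit of the iron store ferritin and an NRF2 target, had 594 ± 72.9 and 454 ± 96.8 normalized counts, with 4 of 5 mice on the ketogenic diet below every control mouse (log2 fold change −0.39, adjusted p = 0.167 from edgeR). Processed copies of Ftl1 exist, so that its reads may be split. Fech, which inserts iron to form heme, had 990 ± 62.9 and 1122 ± 90.9 (log2 fold change 0.18, adjusted p = 0.173).

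Of 16 tested genes that make or use glutathione, 8 were above 0, 8 below and 0 passed (median 0.01). Chac1, which degrades glutathione, had 128 ± 16.8 normalized counts on the control diet and 83.9 ± 17.7 on the ketogenic diet, without overlap between the diets (log2 fold change −0.61, standard error 0.159, adjusted p = 0.0805 from edgeR). DESeq2 gave it an adjusted p-value of 0.0200, and edgeR gave 0.538 once the cardiomyocyte score was added. Slc3a2, the heavy chain that carries the Slc7a11 protein to the membrane and was named after its value had been seen, was at −0.111 (adjusted p = 0.182 from edgeR). Glrx, a glutaredoxin that removes glutathione from proteins, had 234.5 ± 16.8 and 285 ± 25.9 normalized counts (log2 fold change 0.28, adjusted p = 0.132).

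Of 24 tested glutathione transferases, quinone reductases and related targets, 14 were above 0, 10 below and 0 passed the adjusted limit (median 0.07). Gstt1, a theta class transferase, had 688 ± 51.9 and 851 ± 86.7 normalized counts (log2 fold change 0.31, adjusted p = 0.0745 from edgeR, 0.00711 from DESeq2 and 0.720 in edgeR once the cardiomyocyte score is added). Nqo2, the quinone reductase related to Nqo1, had 722 ± 32.1 and 859 ± 105 (log2 fold change 0.25, adjusted p = 0.138). In both genes 4 of 5 mice on the ketogenic diet lay above every control mouse.

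Of 14 thioredoxin and peroxiredoxin genes, 6 were above 0 and 0 passed (median −0.02). Prdx3, the mitochondrial peroxiredoxin, had 1334 ± 53.2 and 1457 ± 96.2 normalized counts (log2 fold change 0.13, adjusted p = 0.211 from edgeR), and 0.20 after correction for the 40.6% to 55.3% of its read starts in use. Prdx6, a cytosolic peroxiredoxin that relies on glutathione, had 2369 ± 97.7 and 2203 ± 100 (log2 fold change −0.10, adjusted p = 0.209).

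Of 10 further genes of superoxide and peroxide removal, 7 were above 0 and 0 passed (median 0.04). Pon3, a paraoxonase, had 685 ± 36.9 and 812 ± 62.0 normalized counts without overlap (log2 fold change 0.25, adjusted p = 0.0781 from edgeR, 0.0132 from DESeq2 and 0.423 in edgeR once the cardiomyocyte score is added). Sesn3, a sestrin, had 11.8 ± 4.22 and 22.4 ± 6.13 from 7 to 33 reads per mouse (log2 fold change 0.93, adjusted p = 0.132). Among 11 tested genes of superoxide sources, 3 were above 0, 8 below and 0 passed (median −0.16). Rac2, a leukocyte GTPase of the NADPH oxidase, had 1064 ± 497 and 660 ± 62.4 normalized counts (log2 fold change −0.69, adjusted p = 0.161 from edgeR), with 1920 in control mouse 1, which also had the highest macrophage score. Without that mouse the log2 fold change was −0.36 (adjusted p = 0.179), and with the macrophage score as a covariate it was −0.42 (adjusted p = 0.121). Aox1, an aldehyde oxidase that releases superoxide, had 205 ± 38.0 and 162 ± 14.7 (log2 fold change −0.34, adjusted p = 0.201).

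The cardiomyocyte score as a covariate moved the log2 fold changes of 8 of the 16 other genes named from the lists by more than 1.5 times. With it, Fech was at 0.0579, Glrx at 0.174, Gstt1 at 0.0932, Prdx3 at 0.0748 and Me1 at 0.0994, all closer to 0. Mafg was at −0.0556 and Ftl1 at −0.233, also closer to 0, and Aox1 was at −0.54, farther from it. None of the 16, Idh1 included, passed the adjusted limit in that fit, which cannot fully separate the diet from the score.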

How the data were processed

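For each of 10 mice the authors deposited raw counts per gene and RPKM, in which those counts are scaled to gene length and library total. The labels' processing notes name bcl2fastq 2.17.1.14, STAR 2.3, HTSeq 0.6.0 and the mm10 build. The annotation release and any removal of duplicate reads are not given in the sources used here. Symbols and positions came from GENCODE M21 (46488 of 46983 identifiers matched without their version).

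The main test was that of edgeR 4.0.16 under R 4.3.3 (TMM, filterByExpr, quasi-likelihood F-test, Benjamini-Hochberg adjustment over 15949 genes). Standard errors were derived from the F statistic. Log2 CPM values, used for permutation tests and for marker scores (mean z-scores), had a prior count of 2. Normalized counts are CPM times the mean effective library size. The fits were tested on simulated data. The alternatives were 3 other scalings, 2 other filters, DESeq2 1.42.0, limma 3.58.1 on log2 RPKM plus 1 or 0.1, a replicate block, 2 marker scores as covariates, counts corrected for read starts, and each mouse left out.

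The genes and lists were chosen with earlier results of these data known. Besides the 10 genes, the text names genes of the lists with an adjusted p-value under 0.05, the 2 with the smallest p-value in each list, and the markers Pecam1, Myh6 and Ptprc, with Keap1, Slc3a2 and the subunit ratio added after their values were seen. The p-values judge the difference between the diets against the spread between mice, in which mouse and library cannot be told apart. Counts of mice on the same diet differed by more than sampling noise in every pair (chi-square of 4.39 to 7.80 per degree of freedom).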

Additional observations from a re-analysis of the deposited data

Results flagged for a closer look

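In each of the 20 groups formed by the 10 genes and the 2 diets, the most distant mouse was examined. The distance to its neighbour, as a share of the spread from lowest to highest, passed Dixon's critical ratio of 0.71 in 2 groups, and chance gives 1 (1 in 20). Control mouse 2 had the lowest normalized count of Nfe2l2 among the control mice, 3656 (ratio 0.748). Control mouse 4 had the lowest of Hmox1, 2031 (ratio 0.722).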

How the results depend on the processing

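Under the 22 alternatives, none of the 10 genes passed an adjusted p-value of 0.05, and 212 of their 219 log2 fold changes kept their sign. The 7 that turned were those of Nqo1 (−0.226 with the cardiomyocyte score as a covariate, −0.0156 without control mouse 5, −0.028 without ketogenic mouse 4, and −0.028 to 0.131 over the mice left out), Gclm (−0.0211 without control mouse 5, −0.0015 without ketogenic mouse 2, and −0.0211 to 0.0728 over the mice left out), Srxn1 (−0.172) and Cat (−0.00793), the last 2 with that covariate. The number of the 10 genes with an unadjusted p-value under 0.05 was 0 in the main test, 2 with the cardiomyocyte covariate, 1 with the replicate block (Gclc) and 0 to 2 with a mouse left out. The number of all genes with an adjusted p-value under 0.05, 213, was 795 with DESeq2, 18 with the cardiomyocyte covariate, 113 with the replicate block and 86 (without control mouse 2) to 492 (without ketogenic mouse 2) with a mouse left out, and it stayed within 1.5 times without control mouse 5 alone. The causes were not tested. No pairing of the mice by replicate number was seen. Same-numbered mice correlated between −0.134 and 0.0936 in their deviations from the diet means, and none correlated best with its own number. So few correlations cannot exclude a pairing. The block lost the call of Idh1 (adjusted p = 0.105). None of the 351 values of the other 16 genes changed sign, and 8 newly passed the limit. Slc7a11 was tested in 21 alternatives, since it had fewer than 10 reads in a mouse. With 1 added to RPKM, its log2 fold change was −0.05.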
